A study of Mus musculus with 66 samples.

Results

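Genes of the extracellular matrix were followed in the whole testis of the mouse from birth to adulthood. They were the collagens, laminins, nidogens, fibrillins, fibulins, microfibril-associated proteins, thrombospondins, matrix metalloproteinases and their TIMP inhibitors, with fibronectin, elastin, periostin, Sparc, biglycan, decorin, lumican, tenascin C and versican. Members were chosen by gene symbol in the platform annotation, on probe sets that name 1 gene. The arrays named 95 such genes among 15964 genes in all, and 78 of the 95 passed the signal filter, which asks for 2 or more of the 22 arrays of a type at a signal of 50 or above, among 13472 genes tested. Each gene was read from its brightest probe set.

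Total RNA of whole testes of BL/6-129 mice was taken on 11 days, namely days 0, 3, 6, 8, 10, 14, 18, 20, 30, 35 and 56 of postnatal life. A day has 2 numbered samples, each hybridised to 3 array types (A, B and C). No agent or mutation is named in the labels. They do not say whether samples were separate animals, pools or repeats, so p-values measure the spread between these samples, which may be technical. For the tests the days were joined into days 0 to 6, days 8 to 14, days 18 to 20 and days 30 to 56, with 6, 6, 4 and 6 samples.

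The extracellular matrix of the testis lies in the interstitium and in the wall of the seminiferous tubule. Fibrillar collagens form the tension-bearing fibrils of connective tissue. Type IV collagen and laminin networks, linked by nidogen, form the basement membrane on which Sertoli cells and spermatogonia rest, and peritubular myoid cells and Sertoli cells both contribute to it. During the first weeks after birth the tubules lengthen and fill with germ cells.

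Most members had their highest signals at birth and lower signals in the adult. By limma's F-test over the 11 days 61 of the 78 members changed at least 2-fold, against 54.4% of all genes tested. At days 30 to 56 against days 0 to 6, 50 members fell and 3 rose, where 20.8% of all genes fell and 15.4% rose. The median change of log2(signal + 16) was -1.54 over the members and -0.23 over all genes tested. Of the 78, 51 reached a signal of 50 on 2 arrays both at days 0 to 6 and at days 30 to 56, and 33 of these fell and 2 rose. A further 22 reached it at days 0 to 6 but not at days 30 to 56, and 17 of these fell. Some of the 22, such as Col5a2 (175.1 to 569.5 at days 8 to 14), reached it in between as well. Others, such as Col25a1, Col8a2 and Thbs4, could pass only through the samples of days 0 to 6. Lamb3 and Col4a3 reached it at days 30 to 56 only, so that they could pass only through the later samples, and 3 members reached it on 2 arrays in neither stage. In whole-organ RNA, fewer cells of a type and less RNA per cell cannot be told apart, and a scaled signal is a share of its array. The samples of days 30 to 56 all lay below those of days 0 to 6 for 51 members (65.4%, against 26% of all genes), and all above for 5 (6.41%, against 18.1%). These 5 were Col16a1, Lamb3, Mfap3l, Lama4 and Lamb2, and the last 3 of them have other probe sets with negative changes, given with each gene.

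**Figure D1:**
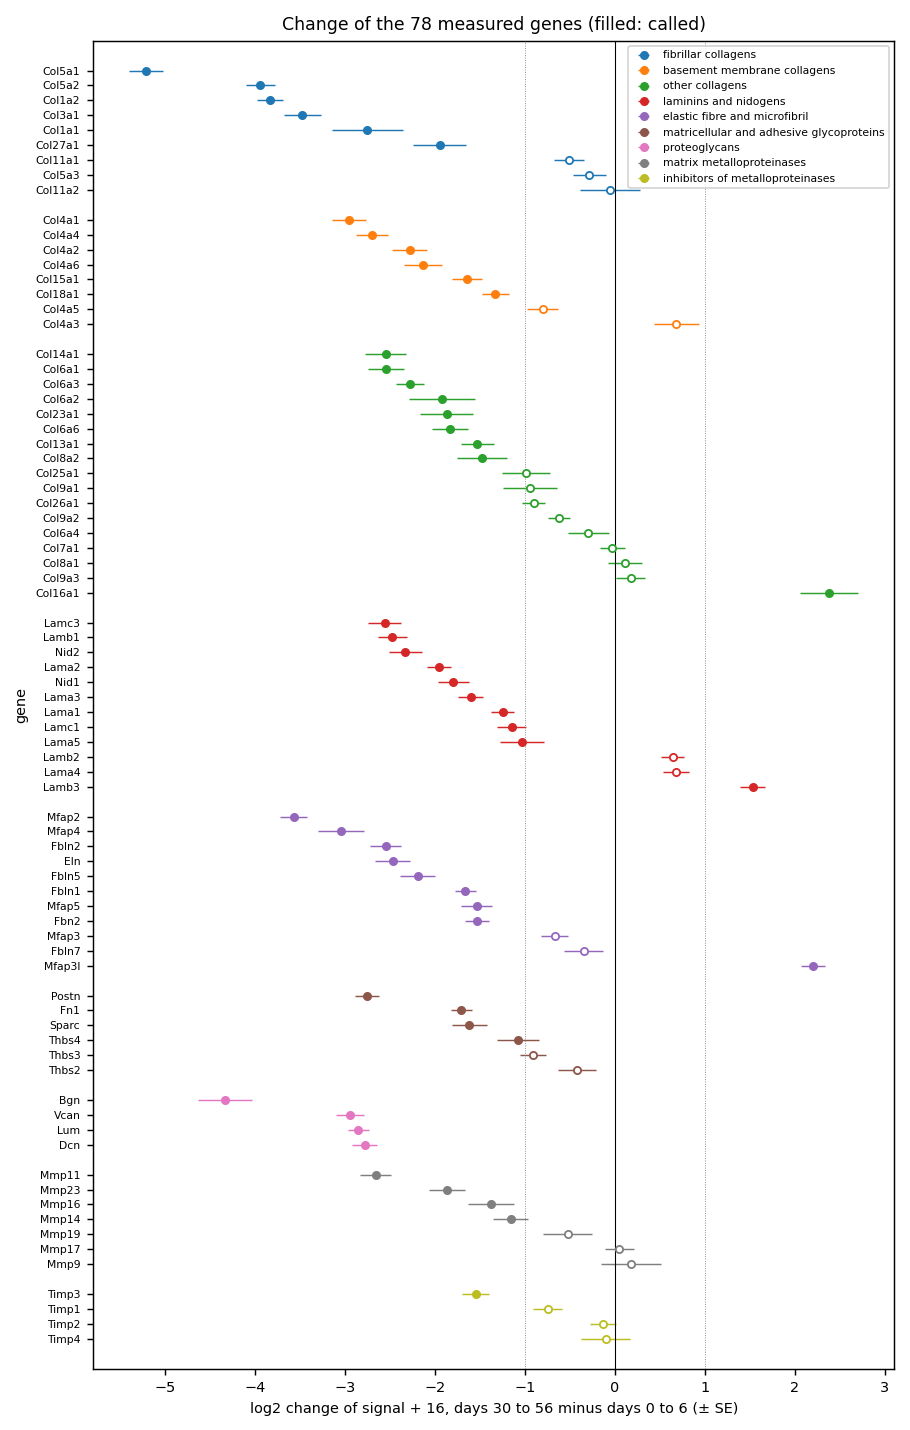
Change of log2(signal + 16) of the 78 measured genes, days 30 to 56 minus days 0 to 6 (6 samples each), with bars of ± 1 SE. Genes run down the page by role class, filled points were called by limma, open points were not, and dotted lines mark a 2-fold change. Filled points lie on the left for 50 genes, with Col5a1 the farthest at -5.21, and on the right for Col16a1, Lamb3 and Mfap3l.

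The decline had more than 1 step. At days 8 to 14 against days 0 to 6, 12 members fell, where 1.6% of all genes fell. They were Vcan, Fbln2, Mfap2, Mfap4, Bgn, Postn and 6 collagen genes, Col5a1, Col5a2, Col8a2, Col25a1, Col26a1 and Col27a1. Col8a2 and Col25a1 passed the signal filter only through days 0 to 6, so their place among these is a description. No member rose by limma's test (1 was higher at an unadjusted p under 0.05), where 1.86% of all genes rose. At days 18 to 20 against days 8 to 14, 28 members fell, where 7.76% of all genes fell. Again none rose (1 was higher at an unadjusted p under 0.05), where 8.13% of all genes rose. At days 30 to 56 against days 18 to 20, 8 members fell and 3 rose, where 3.82% of all genes fell and 6.95% rose. These steps share samples and are given side by side. The 12 became 5 when days 0 and 20, whose samples agreed least over all genes, were left out, and the 28 became 18 when each array was scaled to its median. From end to end, day 56 against day 0, 52 members fell and 3 rose, where 21.2% of all genes fell and 15.9% rose.

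**Figure D2:**
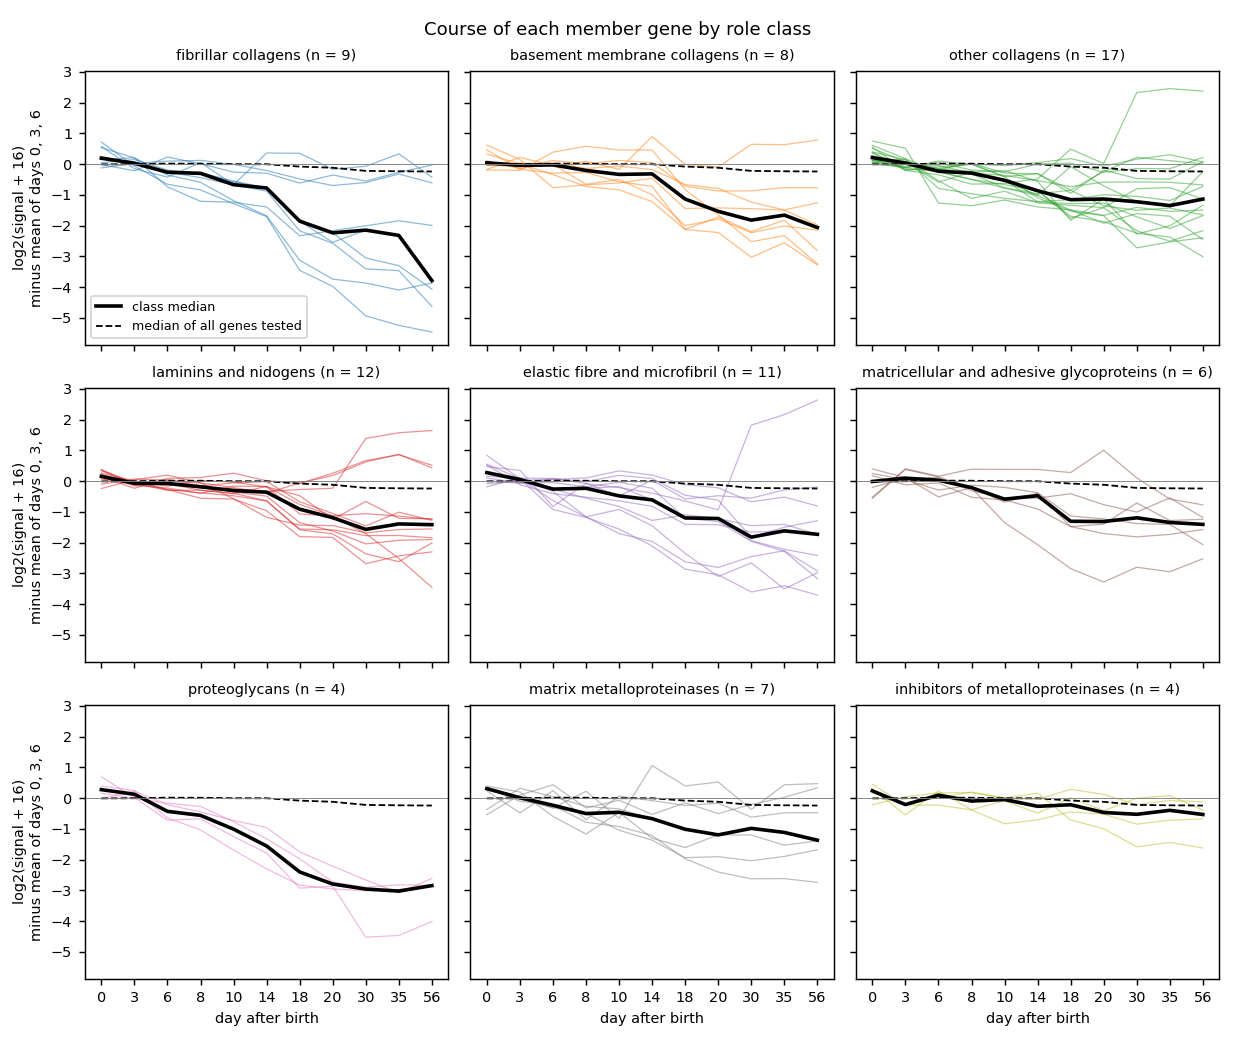
Day means of log2(signal + 16) of each member minus its mean over days 0, 3 and 6, in 9 role classes (thin lines), against day after birth (days evenly spaced on the axis). The black line is the class median and the dashed line the median of all genes tested, which stayed between -0.24 and 0.016, while the median of the fibrillar collagens reached -3.79 at day 56.

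Of the 78 members, 49 (62.8%) had their highest day mean at day 0, against 17.6% of all genes tested. The first day from which a member's mean stayed below 1 in 2 of its days 0 to 6 mean was day 6 for 3 members (Col25a1, Col8a2 and Mfap2), day 8 for 4, day 10 for 8 and day 14 for 9. It was day 18 for 20 members, among them Col1a1, Col1a2, Col3a1, Eln, Fn1 and Sparc. It was day 20 or later for 10, and 24 never stayed below that level. Since Col25a1 and Col8a2 passed the signal filter only through days 0 to 6, their early day is a description.

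Of 9 fibrillar collagens measured, 6 fell at days 30 to 56 against days 0 to 6, and the median change over the 9 was -2.75. Over all genes tested 20.8% fell. Col1a2, which encodes a chain of type I collagen, had signals of 4096 and 3404 at day 0, 2929 and 3399 at day 3, 2475 and 2757 at day 6, 2368 and 2247 at day 8, and 1963 and 1950.1 at day 10. It then had 1448 and 1993 at day 14, 816 and 574 at day 18, 538 and 490.3 at day 20, 269 and 294 at day 30, 208 and 349 at day 35, and 92.2 and 135 at day 56. The pair of samples stayed close to each other on most days, and the step between days 14 and 18 was larger than any difference within a day. The change at days 30 to 56 against days 0 to 6 was -3.83 ± 0.14 (log2 ± SE, adjusted p = 1.68e-13).

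Col3a1, the chain of type III collagen, which accompanies type I in soft connective tissue, ran from 96.5 to 343 with a median of 197 at days 30 to 56, against 1726 to 3335 with a median of 2527 at days 0 to 6, a change of -3.47 ± 0.2 (adjusted p = 6.02e-11). Col5a1 encodes a chain of type V collagen, which starts type I fibrils and limits their width. Its signals lay between 42.6 and 74.4 at days 30 to 56, with a median of 56.6, against 1591 to 4965 at days 0 to 6, with a median of 2555. On this brightest probe set it fell by 5.21 on the log2 scale (SE 0.18, adjusted p = 2.53e-13), which was the largest fall among the members. Its 2 other falling sets, on type A, changed by -2.47 and -1.64. The mean of its 2 sets on type C, the brightest set and a dim level one, changed by -2.60. Its partner chain Col5a2 had 20.9 to 50.7 at days 30 to 56, with a median of 40.6, against 587 to 1030.1 at days 0 to 6, with a median of 855 (-3.94 ± 0.16). The later and the earlier samples did not overlap for any of these chains.

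Col1a1, the other chain of type I collagen, differed between the numbered samples. At day 0 it had signals of 1532 in sample 1 and 4588 in sample 2, at day 3 1524 and 5332, and at day 56 161 and 182. Sample 2 was the higher one on all 11 days. Among the members this held for Col1a1 and Col6a2 alone (2.56% of members, 0.802% of all genes tested). The change of Col1a1 was -2.75 ± 0.4 (adjusted p = 8.06e-06), and it was -2.32 within sample number 1 and -3.18 within sample number 2. Col27a1, a fibrillar collagen of cartilage, fell by 1.95 on the log2 scale (17.2 to 26.5 at days 30 to 56, 58.3 to 225 at days 0 to 6). Its other probe set changed by -0.483 and was not called. Col11a1 (-0.51 ± 0.17), Col5a3 (-0.28 ± 0.19) and Col11a2 (-0.05 ± 0.34) were not called, and their later and earlier samples overlapped.

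**Figure D3:**
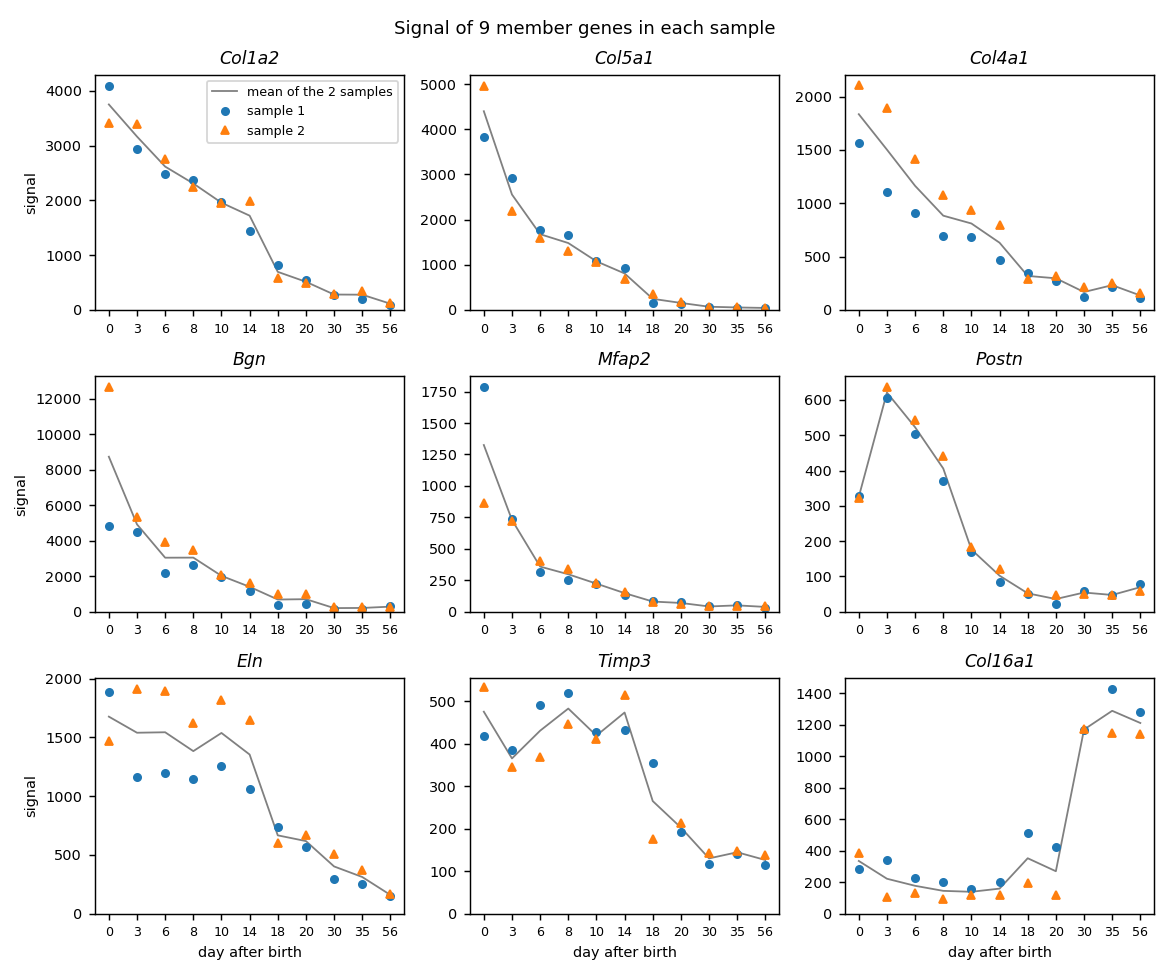
Signal of 9 members in each sample (linear axis from 0) against day after birth, with circles for sample 1, triangles for sample 2 and a line through their mean. Col5a1, Bgn and Mfap2 were lower by day 6, Eln and Timp3 held their level through day 14, Postn was highest at day 3, and Col16a1 lay at or below 509 through day 20 and at 1139.7 or above from day 30.

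Of 8 basement membrane collagens measured, 6 fell, against 20.8% of all genes tested. Col4a1 and Col4a2, which encode the chains of the common type IV network, are neighbours on chromosome 8 and are read in opposite directions. Col4a1 had 115 to 252 with a median of 184 at days 30 to 56, against 911 to 2108 with a median of 1489.7 at days 0 to 6 (-2.95 ± 0.19, adjusted p = 2.95e-10). Col4a2 had 239 to 654 with a median of 405 at days 30 to 56, against 1173 to 2827 with a median of 2109 at days 0 to 6 (-2.28 ± 0.19, adjusted p = 1.97e-08). Both probe sets of Col4a2 fell, the other by 2.10 on the log2 scale.

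Col4a4, a chain of the type IV network best known from the kidney glomerulus, had another course. Its signals were 1702 and 1627 at day 0, 2346 and 1165 at day 3, 2278 and 2727 at day 6, 2990.2 and 2714 at day 8, and 2643 and 2595 at day 14. They were 776 and 1451 at day 18, 660.3 and 538 at day 20, and 167 and 209 at day 56. The highest day was day 8, and the change was 0.50 at days 8 to 14 against days 0 to 6, which was not called, and -1.74 at days 18 to 20 against days 8 to 14, which was. A dimmer probe set of Col4a4 on type A had a change of -0.77 ± 0.31 at days 30 to 56 against days 0 to 6 and was not called. Its neighbour on chromosome 1, Col4a3, was not called (0.69 ± 0.25, with 14.7 to 74.8 at days 30 to 56 and 13.2 to 24 at days 0 to 6). On chromosome X the neighbours Col4a6 (-2.13 ± 0.21) and Col4a5 (-0.80 ± 0.17) both had lower samples throughout at days 30 to 56, and the change of Col4a5 was under 2-fold. Col18a1, the source of the fragment endostatin, held its level to day 14, with a median of 448 at days 8 to 14 and 487 at days 0 to 6, and fell later. All 4 of its probe sets were lower at days 30 to 56, with changes from -3.21 to -1.33. Col15a1, a related collagen of basement membrane zones, fell by 1.64.

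Among the other collagens 8 of 17 measured fell and 1 rose, where 20.8% of all genes tested fell and 15.4% rose. The genes of type VI collagen, which forms beaded filaments around cells, fell with 1 exception. Col6a1 had 135 to 284 at days 30 to 56 against 973 to 2206 at days 0 to 6 (-2.54 ± 0.2), and Col6a3 had 148 to 256 at days 30 to 56 against 868 to 1249.9 at days 0 to 6 (-2.28 ± 0.16). Col6a2, the neighbour of Col6a1 on chromosome 10, changed by -1.92 ± 0.36, with -1.19 within sample number 1 and -2.64 within sample number 2. Col6a6 fell by 1.83, and Col6a4 was not called (-0.29 ± 0.23). Col14a1, which associates with fibrils, fell by 2.55, and the membrane-spanning collagens Col23a1 and Col13a1 fell by 1.87 and 1.53. Col8a2, Col25a1 and Col26a1 had lost most of their signal by day 8. Col25a1 was dim, with 4.6 to 67.7 at days 0 to 6, and passed the signal filter only through those samples, as did Col8a2. Col26a1, a collagen known from testis and ovary, had 236 and 179 at day 0, 93.9 and 106 at day 6, 63.7 and 59.3 at day 8, and 60.1 and 60.8 at day 56. Col8a2 had 47.8 and 285 at day 0, and its early fall was lost without day 0 sample 2. Col7a1, Col8a1, Col9a1, Col9a2, Col9a3, Col25a1 and Col26a1 were not called at days 30 to 56 against days 0 to 6. They belong to anchoring fibrils (Col7a1), to endothelial and corneal sheets (Col8a1), to cartilage fibrils (the Col9 genes) and to membrane-spanning collagens (Col25a1).

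Col16a1, a collagen that associates with fibrils, went the other way. On its only measured probe set it had 286 and 383 at day 0, 225 and 128 at day 6, 199 and 117 at day 14, 509 and 194 at day 18, and 423 and 115 at day 20. It had 1168 and 1171 at day 30, 1429 and 1148 at day 35, and 1283 and 1139.7 at day 56. All 6 samples of days 30 to 56 lay above all earlier samples. The change was 2.38 ± 0.32 against days 0 to 6 (adjusted p = 3.31e-06) and 2.13 against days 18 to 20. Spermatid markers rose over the same interval: the summed signal of the 8 listed genes, Prm1 and Tnp1 among them, was 32658 to 55614 at days 30 to 56, against 295 to 1499 at days 0 to 6, and its part in the rise of Col16a1 was not tested.

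Sequences from 250 bases before to 50 bases after the annotated start are shown for 5 collagen genes, since Col1a2 and Col3a1 fell closely together, Col4a1 and Col4a2 share the space between them, and Col16a1 rose. They are RefSeq sequences of build GRCm38.p6, 5′ to 3′ on the gene's own strand, from chr6:4505368-4505667 (plus) for Col1a2, chr1:45311288-45311587 (plus) for Col3a1, chr8:11312777-11313076 (minus) for Col4a1, chr8:11312555-11312854 (plus) for Col4a2 and chr4:130047590-130047889 (plus) for Col16a1. Capitals mark 3 promoter motifs, each searched on both strands. The CCAAT box was searched by exactly those letters. For the TATA box, where the TATA-binding protein sits, the search used TATAAA. For the GC box, a site of Sp1-type factors in many promoters, the search used GGGCGG.
Col1a2: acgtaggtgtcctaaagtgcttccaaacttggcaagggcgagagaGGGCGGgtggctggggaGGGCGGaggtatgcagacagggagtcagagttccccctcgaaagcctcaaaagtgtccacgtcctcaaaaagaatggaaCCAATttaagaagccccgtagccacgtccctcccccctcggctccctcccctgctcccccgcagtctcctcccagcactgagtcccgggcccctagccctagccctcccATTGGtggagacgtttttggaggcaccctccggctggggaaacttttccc
Col3a1: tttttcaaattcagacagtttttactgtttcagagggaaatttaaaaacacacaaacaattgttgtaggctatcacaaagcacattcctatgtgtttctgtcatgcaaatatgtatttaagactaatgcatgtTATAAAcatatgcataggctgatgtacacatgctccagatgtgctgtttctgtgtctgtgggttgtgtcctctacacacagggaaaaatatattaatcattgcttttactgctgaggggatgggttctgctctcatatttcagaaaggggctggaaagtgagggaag
Col4a1: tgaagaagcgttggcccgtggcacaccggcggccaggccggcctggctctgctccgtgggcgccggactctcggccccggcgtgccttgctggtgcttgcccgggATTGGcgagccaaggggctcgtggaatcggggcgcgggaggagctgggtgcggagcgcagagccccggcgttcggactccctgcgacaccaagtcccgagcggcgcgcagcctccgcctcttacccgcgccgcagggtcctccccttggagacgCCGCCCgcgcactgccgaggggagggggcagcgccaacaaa
Col4a2: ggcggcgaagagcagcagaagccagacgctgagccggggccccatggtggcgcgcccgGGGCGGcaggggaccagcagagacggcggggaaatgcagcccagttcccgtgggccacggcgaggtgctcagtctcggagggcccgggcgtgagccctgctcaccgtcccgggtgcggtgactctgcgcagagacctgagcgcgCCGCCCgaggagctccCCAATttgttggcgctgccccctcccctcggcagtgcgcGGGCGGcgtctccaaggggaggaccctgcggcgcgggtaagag
Col16a1: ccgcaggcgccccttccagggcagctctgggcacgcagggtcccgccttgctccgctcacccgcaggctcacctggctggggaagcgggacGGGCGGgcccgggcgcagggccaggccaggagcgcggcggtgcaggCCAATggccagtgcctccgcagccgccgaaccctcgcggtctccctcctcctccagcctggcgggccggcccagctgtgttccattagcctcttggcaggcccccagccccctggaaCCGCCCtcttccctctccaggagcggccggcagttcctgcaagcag
The windows of Col4a1 and Col4a2 share 78 bases. Col1a2 held the letters of 2 CCAAT boxes, from bases 142 and 251 of its window, and of 2 GC boxes. Col3a1 held those of 1 TATA box, from base 134. The first 250 bases of a window lie before the annotated start. None of the marked boxes overlap within a window. The GC box of Col4a1 and the last GC box of Col4a2 are the same bases, read on opposite strands. Promoter windows were found for 55 of the 78 members, 66 windows in all. The GC box stood in 63.6% of these windows, against 35.7% of all 32851 windows of the table. That table covers 27025 genes, and so also genes that were not tested here. The CCAAT box stood in 37.9% against 37.4% and the TATA box in 9.1% against 13.6%. The cAMP response element (TGACGTCA) stood in 0 of 66 against 1.8%. The marks and these shares are matches of letters and not binding sites.

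Laminins are trimers of an alpha, a beta and a gamma chain. Of 12 laminin and nidogen genes measured, 9 fell and 1 rose at days 30 to 56 against days 0 to 6. Over all genes tested 20.8% fell and 15.4% rose. Lamb1, a widespread beta chain, had 64.4 to 109 with a median of 79.5 at days 30 to 56, against 400.3 to 701 with a median of 519.7 at days 0 to 6 (-2.47 ± 0.16, adjusted p = 3.73e-10), and all 3 of its probe sets fell. Lamc3, a gamma chain, had its fall late, with a median of 429.7 at days 0 to 6, 362 at days 8 to 14, 185 at days 18 to 20 and 64 at days 30 to 56 (-2.56 ± 0.19). Lama2, the alpha chain best known from muscle, fell by 1.95, Lama3 by 1.60, Lama1, the main embryonic alpha chain, by 1.25, Lamc1 by 1.15 and Lama5 by 1.03. The other, dimmer probe set of Lama5 changed by -0.092 and was not called. The linkers Nid2 (-2.33 ± 0.18) and Nid1 (-1.79 ± 0.17) both fell.

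Lamb3, the beta chain of the laminin that anchors epithelia and is known at the apical junction of Sertoli cells with spermatids, rose. It had 12.9 and 13.7 at day 0, 7.5 and 8.3 at day 8, 6.4 and 8.9 at day 20, 53.6 and 59.7 at day 30, 63.2 and 70 at day 35, and 63.7 and 78.4 at day 56. It was below 14 in each sample through day 20 and above 50 in each later sample. The change was 1.54 ± 0.14 on the shifted scale, which understates changes of dim genes. Lamb3 passed the signal filter only through the samples in which it is high, so its place among the genes that rose is a description. Lama3, an alpha chain that pairs with it, fell.

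Lama4 and Lamb2 gave different answers on different probe sets. Lama4, the alpha chain of vessel walls, had 2495 to 3609 at days 30 to 56 against 1207 to 2315 at days 0 to 6 on its brightest probe set, on type C (0.68 ± 0.14, under 2-fold). On the other, on type A, it had 31.1 to 69.3 at days 30 to 56 against 121 to 267 at days 0 to 6, and it fell (-1.55 ± 0.17). Lamb2, a beta chain of synapses, kidney and vessel walls, had 1928 to 3504 at days 30 to 56 against 1387 to 1817 at days 0 to 6 on its brightest set, on type B (0.64 ± 0.12). Its other 3 probe sets had negative changes of -0.57, -0.70 and -1.04, of which the last was called. The brightest sets of both genes have IDs ending in _r_at, and their other sets have other endings. For these genes the direction hangs on the probe set, and no direction is given.

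**Figure D4:**
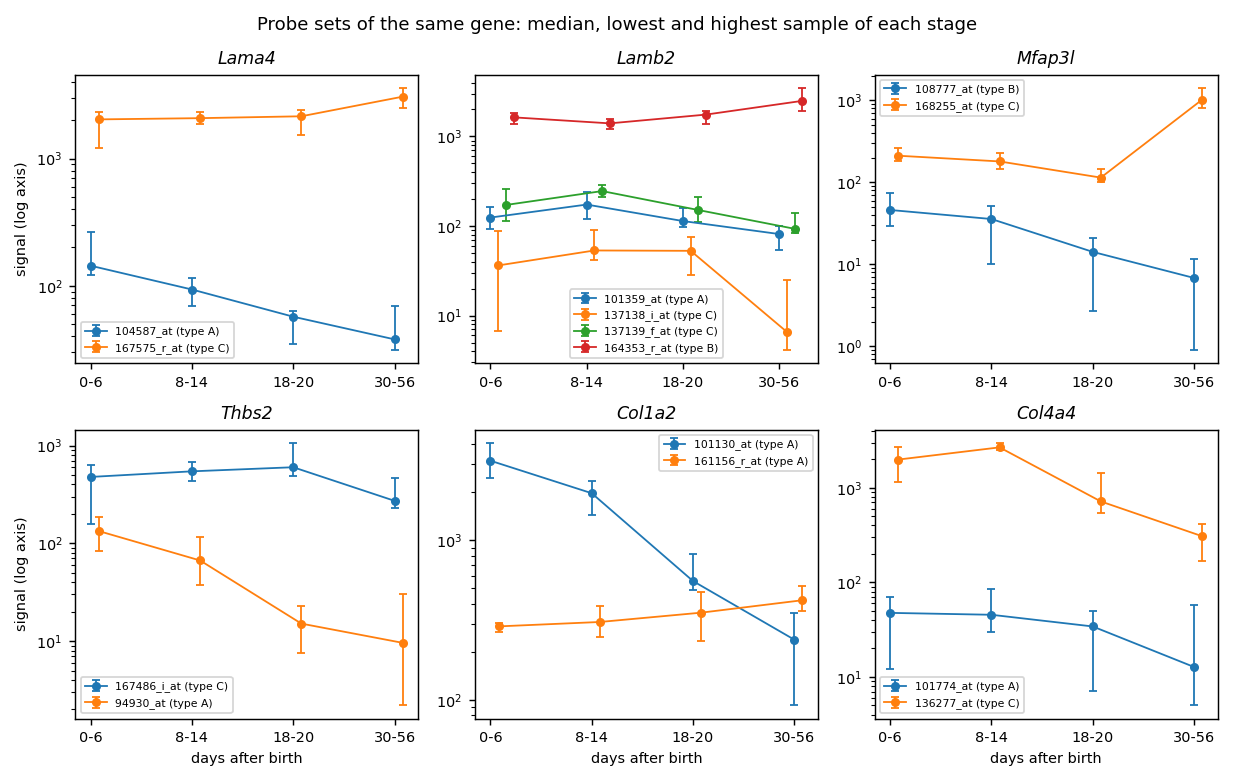
Signal (log axis) of every measured probe set of 6 genes by stage in days after birth, with points at the median and bars from the lowest to the highest sample. The probe sets of Lama4, Lamb2, Mfap3l and Col1a2 ran in opposite directions, and those of Thbs2 and Col4a4 differed in size or timing.

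Of the 29 members with 2 or more measured probe sets, 21 had changes of 1 sign on all of them, 7 had both signs without opposite calls, and Mfap3l was called both ways. For 12 members every probe set fell, among them Bgn, Col1a1, Col3a1, Col4a2, Col5a2, Col6a1, Eln and Lamb1. The size differed between probe sets of a gene: the 3 sets of Bgn changed by -4.33, -2.79 and -1.40, and those of Col1a1 by -2.75 and -1.46. Col1a2 had a second, dimmer set on type A, with a median of 421 at days 30 to 56 and 289 at days 0 to 6 (0.55 ± 0.16, not called). The ID of that set ends in _r_at. Of the 4 sets of Col5a1, 3 fell, and 1 dim set was level (0.004).

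Elastic fibres consist of elastin on a scaffold of fibrillin microfibrils. Of 11 measured genes of this class 8 fell and 1 rose, where 20.8% of all genes tested fell and 15.4% rose. Eln, which encodes elastin, had 1885 and 1466 at day 0, 1162 and 1915 at day 3, 1257 and 1816 at day 10, 1059 and 1648 at day 14, 734 and 597 at day 18, 295 and 507 at day 30, and 148 and 169 at day 56. It changed by -0.15 at days 8 to 14 against days 0 to 6 (not called), by -1.11 at the next step and by -1.21 at the last, both called. Mfap2, a microfibril component, was early: 1784 and 867 at day 0, 735 and 724 at day 3, 314 and 403 at day 6, 136 and 160.5 at day 14, and 33.5 and 43.2 at day 56. Its change was -1.61 at days 8 to 14 against days 0 to 6 and -3.57 ± 0.15 at days 30 to 56 (adjusted p = 8.91e-13). Mfap4 (-3.05 ± 0.26) and Fbln2 (-2.54 ± 0.17), a fibulin that binds basement membranes and elastic fibres, also fell at the first step, by 1.18 and 1.61 on the log2 scale.

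Fbln5, which is needed for elastic fibre assembly in mice, fell (-2.19 ± 0.2), as did Fbln1 (-1.66 ± 0.12) and Fbn2, the fibrillin of developing tissue (-1.53 ± 0.13). Mfap5 fell by 1.53 on its brightest probe set, while its other 3 sets were not called (-0.05 to 0.46). Mfap3 (-0.67 ± 0.15) and Fbln7 (-0.34 ± 0.22) were not called. Mfap3l, which is named for its likeness to Mfap3 and is not known as a fibre component, had 193 and 184 at day 0, 110.2 and 102 at day 20, 806 and 805 at day 30, and 1434 and 1421 at day 56 on type C. That is a rise of 2.21 ± 0.13 (adjusted p = 1.75e-10). A dim set of the same gene on type B had 0.9 to 11.6 at days 30 to 56 against 29.8 to 74 at days 0 to 6, a fall of 1.58.

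Of the 6 adhesive and matricellular genes measured, 4 fell, against 20.8% of all genes tested. Postn encodes periostin, a matricellular protein of collagen-rich tissue. It had 328 and 324 at day 0, 606 and 636 at day 3, 503 and 542 at day 6, 369.8 and 442 at day 8, 170 and 182 at day 10, 84.7 and 119.7 at day 14, and 49 and 55.4 at day 18. Its highest day was day 3, and the samples of the 2 numbers followed each other closely. It had 79.3 and 59.9 at day 56, and the change at days 30 to 56 against days 0 to 6 was -2.76 ± 0.13 (adjusted p = 4.14e-12). Fn1, fibronectin, had 106 to 146 at days 30 to 56 against 377 to 605 at days 0 to 6 (-1.70 ± 0.12). Sparc, a collagen-binding protein, had 579.7 to 1229 at days 30 to 56 against 1964 to 4333 at days 0 to 6 (-1.62 ± 0.19). Thbs4 fell by 1.08 with overlapping samples. It had 12.1 to 69.8 at days 0 to 6 and at most 40.8 at days 8 to 14, its highest later stage. Thbs4 thus passed the signal filter only through days 0 to 6, and its place among the genes that fell is a description. Thbs3 changed by -0.91 ± 0.14, under 2-fold. Thbs2, an inhibitor of vessel growth, was not called on its brightest probe set (-0.42 ± 0.21), and fell by 2.48 on its other.

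All 4 proteoglycans measured fell, against 20.8% of all genes tested. Bgn, biglycan, a small leucine-rich proteoglycan that binds collagen, had 4832 and 12638 at day 0, 4482 and 5360.5 at day 3, 2187 and 3903 at day 6, 1177 and 1633 at day 14, 388 and 989 at day 18, 136 and 277 at day 30, and 334 and 241 at day 56. The samples of day 0 differed widely, and every sample of days 30 to 56 lay below every sample through day 18 (-4.33 ± 0.3, adjusted p = 1.34e-09). Vcan encodes versican, a large hyaluronan-binding proteoglycan of embryonic matrix. It had 206 and 264 at day 0, 104 and 107 at day 6, 70.5 and 83.5 at day 8, 40.1 and 45.9 at day 10, 8.5 and 13.3 at day 18, and 10.3 and 10.5 at day 56. Its fall at the first step was the largest among the members (-1.67), and its change at the last was -0.05. Dcn and Lum, decorin and lumican, which regulate fibril growth, are neighbours on chromosome 10. Dcn had 361 to 527 at days 30 to 56 against 2402 to 4054 at days 0 to 6 (-2.78 ± 0.14), and Lum had 28.8 to 33.8 at days 30 to 56 against 272 to 388 at days 0 to 6 (-2.85 ± 0.12).

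Matrix metalloproteinases degrade matrix proteins. Of 17 named on the arrays 7 passed the signal filter, and 4 of these fell, against 20.8% of all genes tested. Mmp11 had 20.5 to 50.2 at days 30 to 56 against 228 to 413 at days 0 to 6 (-2.66 ± 0.17). Mmp23 fell by 1.87 and Mmp16, a membrane-bound member, by 1.37. Mmp16 had 18.2 to 42.2 at days 30 to 56 against 37 to 164 at days 0 to 6. Its later samples all lay below 50 and overlapped the earlier ones. Mmp14, the membrane-bound activator of the gelatinase Mmp2, had 160.3 to 252 at days 30 to 56 against 212 to 662 at days 0 to 6 (-1.15 ± 0.2). The lowest earlier sample of Mmp14, day 0 sample 1, overlapped the later samples. Mmp9 (0.18 ± 0.34), Mmp17 (0.05 ± 0.16) and Mmp19 (-0.52 ± 0.27) were not called.

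TIMPs inhibit these enzymes, and 1 of 4 fell, where 20.8% of all genes tested fell. Timp3, which is bound to the matrix, had 417 and 533 at day 0, 519.6 and 446 at day 8, 431 and 516 at day 14, 354 and 175 at day 18, 191 and 214 at day 20, and 114 and 138 at day 56. It held its level through day 14 and changed by -1.55 ± 0.15 at days 30 to 56 against days 0 to 6 (adjusted p = 4.75e-08). Timp1 had 122 to 181 at days 30 to 56 against 194 to 503 at days 0 to 6 and stayed under 2-fold (-0.75 ± 0.16). Timp2 had 449 to 533 at days 30 to 56 and 402 to 829.6 at days 0 to 6 (-0.13 ± 0.14), and Timp4 changed by -0.10 ± 0.27. Neither was called.

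The 17 members that did not pass the filter were Col2a1 of the fibrillar class, Col10a1, Col12a1, Col17a1, Col19a1 and Col22a1 of the other collagens, Tnc, and Mmp2, Mmp3, Mmp7, Mmp8, Mmp10, Mmp12, Mmp13, Mmp24, Mmp27 and Mmp28. Their highest signal on any array lay between 4.2 and 62.9. Fbn1 and Thbs1 were not analysed here, since no probe set names either of them alone.

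Genes that make, bind or accompany the matrix were read from lists. At days 30 to 56 against days 0 to 6, 20.8% of all genes tested fell and 15.4% rose (median -0.23). Of 28 listed names for collagen and elastin processing (some of them old names of the same gene) 17 were measured and 8 fell, with a median change of -0.89 at days 30 to 56 against days 0 to 6. No gene of this list rose by limma's test (1 was higher at an unadjusted p under 0.05). Lox, the enzyme that starts collagen and elastin cross-links, had 1.6 to 13.2 at days 30 to 56 against 121 to 311 at days 0 to 6 (-3.32 ± 0.19). Serpinh1, the collagen chaperone, had 79.3 to 131 at days 30 to 56 against 670.5 to 1545 at days 0 to 6 (-3.09 ± 0.15), and the prolyl hydroxylase P3h1 changed by -2.12 ± 0.2. P4hb, a subunit of prolyl 4-hydroxylase that also serves other proteins, changed by 0.93 and was not called.

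Of 34 other matrix glycoproteins and proteoglycans listed, 25 were measured and 14 fell (median -1.02), against 20.8% of all genes tested. None rose by limma's test, nor was any higher at an unadjusted p under 0.05. Ogn (-2.94 ± 0.25), Aspn (-2.56 ± 0.24), both small leucine-rich proteoglycans, and Matn2 (-2.44 ± 0.15), a matrilin, changed most. Of 22 matrix receptors 19 were measured, 12 fell and 1 rose (median -1.19), where 20.8% of all genes tested fell and 15.4% rose. Itgb1, the common beta chain of collagen and laminin receptors, had 252 to 393 at days 30 to 56 against 1614 to 1964 at days 0 to 6 (-2.42 ± 0.13), and Itgav (-2.60 ± 0.13) and Itga9 (-2.54 ± 0.24) fell as well. Itga1, the alpha chain of a collagen receptor, had 296 to 408 at days 30 to 56 against 75.5 to 163 at days 0 to 6, a rise of 1.54 ± 0.24 (adjusted p = 2.87e-05).

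Over the 11 day means on array type A (4999 genes), the course of log2(signal + 16) most like that of Col1a2 was that of Col3a1 (Pearson's r = 0.998), with Col6a1 at 0.993. The genes outside the matrix set with the highest values were Lage3 (0.996), Msn (0.993), Tyro3 (0.992), Il6st (0.991) and Bmyc (0.991). The 11 points share their arrays and scaling.

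Markers of the cell types of the testis were read from lists. Beside the calls in each list, 20.8% of all genes tested fell and 15.4% rose at days 30 to 56 against days 0 to 6. The summed signal of 4 measured markers of interstitial fibroblasts (Pdgfra, Dpt, Tcf21 and Nr2f2) was 229 to 341 at days 30 to 56, against 1880.2 to 3315 at days 0 to 6, and all 4 fell. It had a median of 2638 at days 0 to 6, 1304 at days 8 to 14, 571 at days 18 to 20 and 253 at days 30 to 56. That of 7 markers of peritubular myoid cells and smooth muscle was 2059 to 2804 at days 30 to 56, against 2852 to 4434 at days 0 to 6, with 4 lower and 1 (Actg2) higher. Acta2, the defining marker of that list, had a median of 255 at days 30 to 56 against 1463 at days 0 to 6. That of 11 Sertoli cell markers was 2821 to 3523 at days 30 to 56 against 5093 to 7723 at days 0 to 6, with 5 lower and 1 higher. That of 8 endothelial markers was 299.5 to 462 at days 30 to 56 against 843 to 2274 at days 0 to 6, with 3 lower. The 6 macrophage markers summed to 516 to 596 at days 30 to 56 against 575 to 876 at days 0 to 6, with none called by limma (4 were lower at an unadjusted p under 0.05), and 5 Leydig cell markers to 1547 to 2241 at days 30 to 56 against 1004 to 3583 at days 0 to 6, with 2 lower and 1 higher. Markers of spermatocytes, 5 genes, summed to 15234 to 20475 at days 30 to 56, against 225 to 450.5 at days 0 to 6. Of these 4 were higher, and Sycp3 was not called (median 17 at days 30 to 56, 48.3 at days 0 to 6). The 5 spermatogonial markers summed to 2565 to 3946 at days 30 to 56 against 411 to 1856 at days 0 to 6, with 1 higher (Dmrtb1) and 1 lower. Most of the later sum was Dmrtb1, with a median of 2895 at days 30 to 56 against 17.95 at days 0 to 6. In the same order, medians were 85.05 and 334.1 for Zbtb16 and 285.9 and 441.7 for Uchl1. They were 50.15 and 50.3 for Kit, and 54.6 and 39 for Stra8. Of tissues that could be carried along at dissection, 3 skeletal muscle genes summed to 142 to 203 at days 30 to 56 against 174 to 327 at days 0 to 6. Adipoq, the adipocyte hormone and the 1 adipocyte marker measured, had 137 to 216 at days 30 to 56 against 10 to 65.9 at days 0 to 6 and rose (1.97 ± 0.17). Cnmd, the 1 cartilage marker measured, had 95.8 to 162.5 at days 30 to 56 against 247 to 590.4 at days 0 to 6 and fell (-1.49 ± 0.18). No listed epididymis gene was measured. The ratio of 3′ to 5′ actin control signals, a measure of RNA integrity, had medians of 1.33 to 1.483 on the 3 types at days 30 to 56 and 1.399 to 1.503 at days 0 to 6. That of the Gapdh control had medians of 0.817 to 0.917 at days 30 to 56 and 0.809 to 0.845 at days 0 to 6. The part of these cell populations and of RNA integrity in the change of the matrix genes was not tested.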

How the data were processed

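The deposited values are signal intensities, 1 per probe set and array, not logged and scaled by the authors to a mean of 125, per the labels. The software and the detection calls are not given in the sources used here. After leaving out 2% of probe sets at each end, array means lay between 125.0 and 125.1, and 46.0% to 63.1% of an array's probe sets were at 50 or above. The number of arrays limits the precision.

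Probe sets that name 1 gene in the platform annotation were used (29131 of 36899). All 95 member symbols stand in the reference table of build GRCm38.p6. Signals were analysed as log2(signal + 16), and fold changes are on that scale. limma 3.58.1 under R 4.3.3 was fitted to 11 day means per array type (22 arrays each), with eBayes and a variance trend. Tests were two-sided and adjusted by Benjamini-Hochberg over all 13472 genes of the 3 types (values of a second probe set: over all probe sets). Calls needed a 2-fold change beside an adjusted p below 0.05. The fit was tested on simulated data. "Rose" and "fell" mean called.

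The members, role classes and lists were chosen with earlier results of these data known. Any member could be named, with values by day or stage for those with the largest called changes or highest signals of a class, those called against their class, and textbook members. From the other lists up to 3 genes with the largest called changes were named, and single genes beyond that, such as P4hb, were chosen after their values were seen. Alternatives were other pseudocounts, signal filters, scalings, probe set rules, no variance trend, the sample number as a block and leaving out each sample. Leaving out days 0 and 20 was chosen after seeing the data. Whether the sample numbers pair samples was checked by the correlation of deviations from day means over 55 pairs of days per type. It was over 0.1 for 27, 27 and 19 pairs on types A, B and C, with medians of 0.094, 0.096 and 0.054. This check did not settle the pairing. The main fit used no pairing, and the sample number as a block was an alternative.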

Additional observations from a re-analysis of the deposited data

How the results depend on the processing

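The count of members lower at days 30 to 56 against days 0 to 6 (50) lay between 42 and 54 under the other settings, and between 49 and 51 when 1 sample was left out. Of the 53 members called in that comparison, 40 were called under every setting run, and none turned its sign. The type B set of Mfap3l, called the other way, entered none of these settings. A gene's probe sets were averaged only within an array type. At days 8 to 14 against days 0 to 6 the 12 lower members became 7 with a pseudocount of 64 and 5 without days 0 and 20 (Vcan, Fbln2, Mfap2, Col5a2 and Postn). The range with 1 sample left out was 11 to 16. At days 18 to 20 against days 8 to 14 the 28 became 15 with a pseudocount of 64 and 18 with arrays scaled to a common median (25 to 31 with 1 sample left out). No member was higher there, and 0 to 1 was with 1 sample left out, the 1 without day 8 replicate 1, day 18 replicate 2 or day 20 replicate 2. At days 30 to 56 against days 18 to 20 the 8 lower members became 5 on plain probe sets alone (IDs ending in _at with no other suffix). On those sets Lama4 changed by -1.55 at days 30 to 56 against days 0 to 6 and by -1.64 at day 56 against day 0, and Thbs2 by -1.47 at days 18 to 20 against days 8 to 14, each with the opposite sign to the brightest set. The cause of these shifts was not tested.

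With the sample number as a replicate block the counts were 50 lower and 3 higher at days 30 to 56 against days 0 to 6, and 61 over all days, and no count changed by over 1.5 times. Scaling to the median moved the median change over all genes to 0.009 and that over the members to -1.36. A fold change of a gene with signals near the pseudocount is understated, and a signal under 50 may be background, so the timing of dim members such as Vcan after day 14 is limited by the array.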
